A study of Homo sapiens with 8 samples.

Results

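The peroxiredoxin and thioredoxin system was followed in SV-HUC1, an immortalised line of normal human urothelial cells, through 10 genes: PRDX1 to PRDX6, TXN, TXNRD1, SRXN1 and TXNIP. They were chosen by gene name, with earlier results of these data known but no measured value in the rule. Each matched exactly 1 of the 58735 genes in the deposited count table. The study compared 4 untreated cultures with 4 cultures that received 20 mU/ml glucose oxidase, an enzyme that forms hydrogen peroxide while it consumes glucose, and all were taken at 24 h. All 8 cultures were SV-HUC1 with no other allele or agent in the labels, and no group received peroxide alone or inactive enzyme, so effects of peroxide and of glucose use cannot be told apart. RNA was sequenced from whole cultures, so fewer cells that express a gene and less of its RNA per cell cannot be told apart. The labels call the cultures of a group biological replicates without saying how they were separated, and p-values measure only the spread between these 8 libraries.

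Peroxiredoxins are abundant enzymes that reduce hydrogen peroxide at a reactive cysteine. In most of them the oxidised cysteine is reduced again by thioredoxin, thioredoxin by the selenoprotein thioredoxin reductase, and the reductase by NADPH. Sulfiredoxin repairs peroxiredoxins whose cysteine has been oxidised too far, and TXNIP binds reduced thioredoxin and inhibits it. TXNRD1, SRXN1 and PRDX1 are textbook targets of NRF2, which turns on antioxidant genes, while transcription of TXNIP is known to follow glucose supply.

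Total counts ran from 21437267 to 27183692 per library. Control 3 stood apart, with the lowest TMM factor, the scaling factor used for levels (0.768, others 0.8875 to 1.175) and the fewest genes detected (24385, others 26550 to 31006). Without control 3, edgeR with the treatment as its only term gave log2 changes of -0.12 for PRDX1, -0.28 for PRDX4 and -0.33 for PRDX5. TXNRD1 had 0.78 and TXNIP 0.45 in that fit. With control 3 the changes were -0.60, -0.55, -0.51, 0.66 and 0.53 in the same order. Leaving out 1 control makes the replicates unequal between the groups, so such changes mix treatment with differences between replicates. For PRDX1, leaving out control 1, 2 or 4 instead gave -0.85, -0.89 and -0.35. In the fit that compares equal replicate numbers, without replicate 3 in either group, PRDX1 had -0.34, PRDX4 -0.42 and PRDX5 -0.38. There TXNRD1 had 0.79 and TXNIP 0.50. Of 14 urothelial and epithelial markers, 12 were tested, and UPK1A and UPK3A stayed below 1 CPM by total counts. The keratins KRT5, KRT8, KRT13 and KRT19 fell and GATA3 rose in the fit that compares equal replicate numbers. In a fit that separates only the pair of replicates 1 and 2 from 3 and 4, KRT8 (adjusted p = 0.0998) and GATA3 (adjusted p = 0.0614) did not pass. Their part in the results for the 10 genes was not tested. Of 14 markers of fibroblasts, endothelium and leukocytes 10 stayed below 1 CPM in every library and 0 were called. COL1A1, CDH5, CD14 and KDR did not stay below 1 CPM. Control means were 20.11 CPM for COL1A1, 3.451 for CDH5 and 4.037 for CD14, and KDR had at most 1.29 CPM by total counts.

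In a fit that compares libraries of equal replicate number, TXNRD1 and TXNIP rose after glucose oxidase and PRDX1, PRDX4 and PRDX5 fell, each by less than 2-fold. TXNRD1 was 1.60-fold and TXNIP 1.48-fold of the control level, and PRDX4 was 0.688-fold, PRDX5 0.708-fold and PRDX1 0.713-fold. PRDX2, PRDX3, PRDX6, TXN and SRXN1 did not pass. The words rose and fell are used below of genes with an adjusted p below 0.05 in this blocked edgeR fit, where 7.51% of 17413 tested genes were called higher and 6.97% lower. The labels do not say that libraries of equal number were paired. All 10 genes passed the filter on low counts and were tested. Without the block, edgeR called 0 of the 10 genes and 0% of all genes, with 1284 genes at an unadjusted p below 0.05, among them TXNRD1 (unadjusted p = 0.017). DESeq2 without the block called 76 genes and 0 of the 10.

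Promoter sequence of the 2 genes that rose is shown because they are the members called higher. RefSeq promoters (GRCh38.p14) were available here for 8 of the 10 genes, all but PRDX1 and PRDX6. TXNRD1, TXNIP and PRDX5 had more than 1 start. The 250 bases before both TXNRD1 starts and before 1 of the 2 TXNIP starts are printed 5′ to 3′ on the gene's strand, and capitals mark every match on either strand to TGACNNNGC, the core of the antioxidant response element through which NRF2 acts, or to CCAAT, the CCAAT box. The TXNRD1 windows are chr12:104215529-104215778 and chr12:104286782-104287031 on the plus strand, and the TXNIP window is chr1:145996580-145996829 on the minus strand. The other TXNIP window held none of the motifs searched and is not printed.
TXNRD1 first start: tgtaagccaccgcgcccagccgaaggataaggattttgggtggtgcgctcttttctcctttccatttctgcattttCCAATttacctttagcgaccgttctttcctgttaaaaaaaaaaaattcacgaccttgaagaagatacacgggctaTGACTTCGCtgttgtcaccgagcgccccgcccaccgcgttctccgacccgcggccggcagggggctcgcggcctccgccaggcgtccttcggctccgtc
TXNRD1 second start: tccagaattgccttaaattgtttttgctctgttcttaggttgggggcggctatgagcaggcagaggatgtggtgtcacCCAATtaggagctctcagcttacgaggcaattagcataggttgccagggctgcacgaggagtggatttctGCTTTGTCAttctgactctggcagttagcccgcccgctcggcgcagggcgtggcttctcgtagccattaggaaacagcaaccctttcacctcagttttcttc
TXNIP: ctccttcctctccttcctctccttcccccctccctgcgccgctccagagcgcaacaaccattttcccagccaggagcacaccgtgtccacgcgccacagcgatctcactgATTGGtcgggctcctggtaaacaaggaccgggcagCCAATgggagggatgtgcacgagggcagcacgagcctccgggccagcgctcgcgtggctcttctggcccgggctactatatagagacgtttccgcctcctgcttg

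Both TXNRD1 windows held TGACNNNGC. The match began 99 bases before the first start, and on the other strand 102 bases before the second. None of the other 9 windows of the 10-gene set in RefSeq held this motif, which was found in 10.9% of 35116 promoter windows of the same length. PRDX1 and PRDX6 had no window and were not searched. CCAAT stood once in each TXNRD1 window and in the TXNIP window shown at 140 (other strand) and 105 bases before the start, and in 32.0% of all windows. CACGTG, a form of the E-box, was found in the PRDX3 and PRDX4 windows and in 6.34% of all. TGACTCA, an AP-1 site, was found in none of the 11 and in 4.20% of all. Other forms of the E-box were not searched. A match describes letters only. The deposited counts are per gene, so they do not show from which start TXNRD1 was transcribed.

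TXNRD1, the cytosolic thioredoxin reductase (ENSG00000198431, chromosome 12, 104215779 to 104350305, GRCh38), had TMM-normalised levels, in counts scaled by effective library size (CPM), of 147.4, 184.6, 248.6 and 227.5 in controls 1 to 4. In treated cultures 1 to 4 it had 379.7, 301.3, 314.2 and 280.5 CPM. Every treated library lay above every control, which held for 2.42% of all tested genes, and TXNRD1 was the only 1 of the 10 genes placed so. None of the 10 had all treated libraries below all controls, against 2.60% of tested genes. The mean went from 202.0 ± 45.1 to 318.9 ± 42.8 CPM (SD, n = 4), and the fitted log2 change was 0.68 (SE 0.17, edgeR adjusted p = 0.00881). The change was 1.37 on the log2 scale between the libraries numbered 1, 0.71 between those numbered 2, and 0.34 and 0.30 for numbers 3 and 4. Without replicate 1 in either group the blocked adjusted p was 0.0912 and the log2 change 0.46. RPL18AP3, a ribosomal protein pseudogene listed with 1251 to 2619 counts, lies inside the TXNRD1 gene on the same strand but shares 0 exon bases with it.

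TXNIP, the thioredoxin-binding arrestin (ENSG00000265972, chromosome 1, 145992435 to 145996600), was at 870.1, 812.5, 569.4 and 479.3 CPM in controls 1 to 4. Treated cultures 1 to 4 had 1083, 1045, 967.8 and 837.1 CPM. Each treated library exceeded the control of the same number, yet the groups overlapped, because control 1 lay above treated 4. The means were 682.8 ± 188 and 983.3 ± 109 CPM (SD, n = 4), and the fitted log2 change was 0.56 (SE 0.17, edgeR adjusted p = 0.0251). The log2 ratios by number were 0.32, 0.36, 0.77 and 0.81. The adjusted p was 0.0974 without replicate 3 and 0.151 without replicate 4, and the log2 change stayed at 0.50 and 0.48.

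TXN, cytosolic thioredoxin itself (ENSG00000136810, chromosome 9, 110243811 to 110256640), did not pass. TXN was at 491.3, 322.2, 1277 and 816.0 CPM without treatment and 401.1, 206.2, 720.4 and 803.2 CPM in treated cultures. All 4 numbered comparisons were below 0, with the smallest, -0.02 on the log2 scale, for number 4. The fitted log2 change was -0.45 (SE 0.17, edgeR adjusted p = 0.0774). DESeq2 with the block gave an adjusted p of 0.0243 for TXN.

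**Figure D1:**
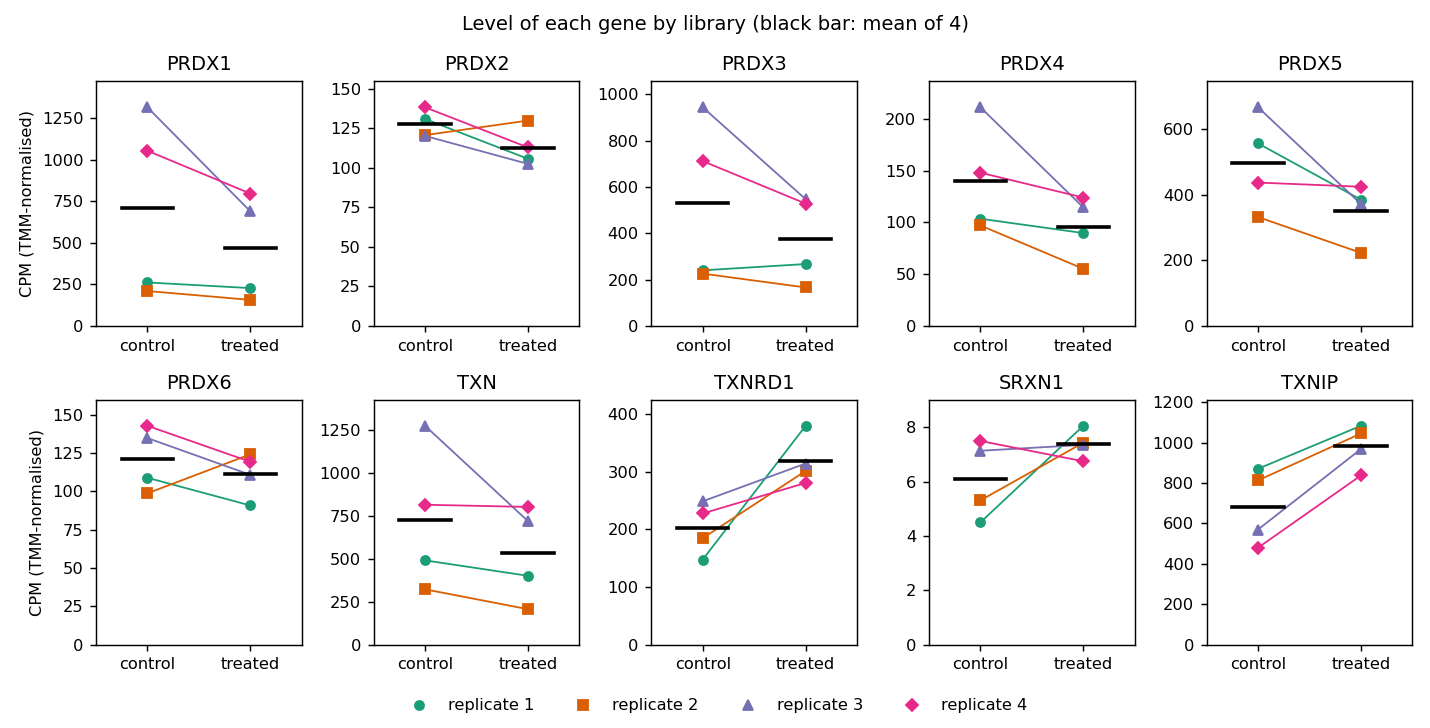
TMM-normalised CPM (vertical axes, each from 0) of the 10 genes in control and treated cultures, with lines joining libraries of equal replicate number and black bars at the mean of 4. TXNRD1 and TXNIP slope up for all 4 numbers, and PRDX1, PRDX3 and TXN are higher in libraries 3 and 4 than in 1 and 2.

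Among the peroxiredoxins, PRDX4, the member of the endoplasmic reticulum (ENSG00000123131, chromosome X, 23664262 to 23686399), fell with the smallest adjusted p. Its levels were 103.5, 97.0, 211.0 and 147.9 CPM in controls 1 to 4 and 89.67, 55.22, 114.4 and 123.9 CPM in treated cultures 1 to 4. Each treated library was below the control of its number, but treated 3 and 4 lay above controls 1 and 2. The log2 change was -0.54 (SE 0.15, edgeR adjusted p = 0.0175). The adjusted p was 0.103 without replicate 2 and 0.137 without replicate 3.

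PRDX5, found in mitochondria, peroxisomes and cytosol (ENSG00000126432, chromosome 11, 64318088 to 64321811), had 556.7, 332.3, 666.8 and 437.3 CPM without treatment and 385.0, 223.0, 371.8 and 424.6 CPM in treated cultures. It was lower in treated cultures for every number, by 0.84 on the log2 scale for number 3 and 0.04 for number 4. The log2 change was -0.50 (SE 0.16, edgeR adjusted p = 0.0401). Of the 4 blocked fits that leave out 1 replicate number, PRDX5 passed only in the one without replicate 4 (adjusted p = 0.0395).

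PRDX1, the main cytosolic peroxiredoxin (ENSG00000117450, chromosome 1, 45511036 to 45523047), had 261.6, 210.2, 1314 and 1053 CPM without treatment and 227.8, 157.0, 689.2 and 795.7 CPM in treated cultures. Libraries 3 and 4 of both groups stood above all libraries 1 and 2, and on the log2 scale controls 3 and 4 exceeded controls 1 and 2 by 2.33, against treatment differences of -0.20, -0.42, -0.93 and -0.40 for numbers 1 to 4. The log2 change was -0.49 (SE 0.17, edgeR adjusted p = 0.0484), and all 4 numbered comparisons were below 0. PRDX1 passed in none of the blocked fits that leave out 1 number, where the adjusted p was 0.0614, 0.111, 0.269 and 0.117 without replicates 1 to 4 in turn. Of the PRDX1 exon bases, 379 (24.9%) are also exon bases of MMACHC on the opposite strand, which had 184 to 292 counts against 3907 to 23743 for PRDX1.

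PRDX3, the mitochondrial peroxiredoxin, had the same split as PRDX1, with 240.2, 226.0, 943.5 and 711.4 CPM without treatment and 267.3, 166.3, 546.9 and 528.0 CPM in treated cultures. It was lower in 3 of the 4 numbered comparisons and did not pass (log2 change -0.38, SE 0.17, edgeR adjusted p = 0.135). PRDX2, another cytosolic member, lay between 120.2 and 138.3 CPM without treatment and between 102.5 and 129.9 CPM in treated cultures (log2 change -0.18, SE 0.14, adjusted p = 0.433). PRDX6, which is reduced by glutathione and not by thioredoxin, lay between 98.61 and 142.7 CPM without treatment and between 90.71 and 124.1 CPM in treated cultures (log2 change -0.12, SE 0.15, adjusted p = 0.649). Both had overlapping groups, and controls 3 and 4 minus controls 1 and 2 was 0.04 (PRDX2) and 0.42 (PRDX6) on the log2 scale, against 2.33 for PRDX1 and 1.83 for PRDX3.

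SRXN1, sulfiredoxin (ENSG00000271303, chromosome 20, 646615 to 653370), was at 4.495, 5.308, 7.137 and 7.498 CPM without treatment and 8.057, 7.434, 7.352 and 6.749 CPM in treated cultures. It was higher in treated cultures 1 and 2 and near the control in 3 and 4, with log2 ratios of 0.84, 0.49, 0.04 and -0.15. It did not pass (log2 change 0.30, SE 0.19, edgeR adjusted p = 0.321). In the annotation 2292 of its 2698 exon bases (85.0%) are also exon bases of AL121758.1 on the same strand, a gene listed with 0 to 1 counts. No source used here says how reads over both genes were handled, and the level of SRXN1 against other genes is uncertain.

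**Figure D2:**
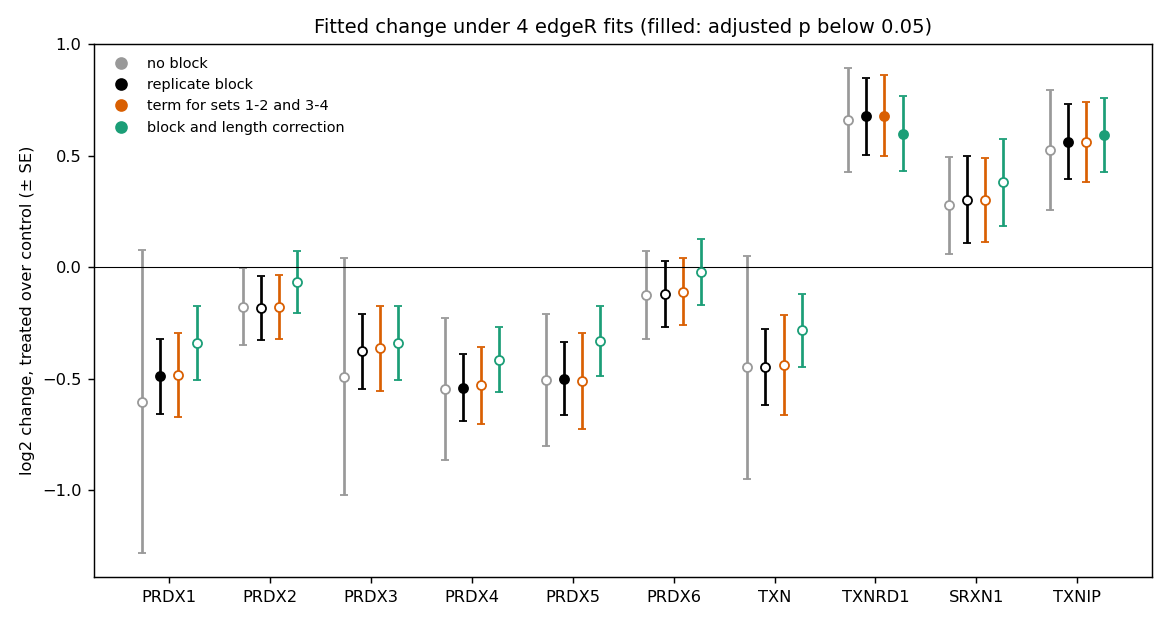
Fitted log2 change of treated over control (vertical axis, bars are SE) for each gene under 4 edgeR fits, with filled points at an adjusted p below 0.05. TXNRD1 passes in the 3 fits that have a term for the replicates, TXNIP with the block and with block and length correction, and PRDX1, PRDX4 and PRDX5 with the block alone.

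The calls differed in how they held under other fits. Replicates 1 and 2 separate from replicates 3 and 4 in both groups. No label records this division, which was seen in the expression values. With a term for it in place of the block, edgeR called 3.72% of genes higher and 3.07% lower, and of the 10 genes TXNRD1 alone passed (log2 change 0.68, adjusted p = 0.0344). TXNIP had an adjusted p of 0.0648, PRDX4 0.0675, PRDX1 0.118 and PRDX5 0.148 in that fit. Gene length is 1904 bases for PRDX4, 1522 for PRDX1 and 893 for PRDX5, against 6708 for TXNRD1 and 3625 for TXNIP. The genes that rose are the longest of the 10, and those that fell are, with TXN (1142 bases), the shortest. PRDX3, at 3417 bases, had a blocked log2 change of -0.38 and did not pass. In the blocked fit with a correction for length, PRDX4 had a log2 change of -0.41 (adjusted p = 0.061), PRDX1 -0.34 (0.188) and PRDX5 -0.33 (0.175). TXNRD1 (0.60, adjusted p = 0.0212) and TXNIP (0.59, adjusted p = 0.0208) passed with that correction. Scaling by total counts moved the blocked median log2 change of all genes from -0.01 to 0.10, and there too TXNRD1 (0.79, adjusted p = 0.00366) and TXNIP (0.67, adjusted p = 0.00837) passed while the 3 peroxiredoxins did not (0.0624 for PRDX4). The part of gene length in the results for the 10 genes was not tested beyond the length correction.

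The authors' deposited table listed none of the 10 genes at an adjusted p below 0.05. For TXNRD1 the authors' deposited table gives a log2 change of 0.65 (adjusted p = 0.299), and for TXNIP 0.53 (adjusted p = 0.475). PRDX5 had -0.51 (adjusted p = 0.655) in the authors' deposited table, PRDX4 -0.56 (0.686) and PRDX1 -0.62 (0.809). These values are close to those of DESeq2 without the block on the same counts. That fit gave 0.65 for TXNRD1 (DESeq2 adjusted p = 0.298) and 0.53 for TXNIP (0.473).

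The treatment change was also fitted separately in the 2 sets of replicates. TXNRD1 had a log2 change of 1.04 (SE 0.22) in replicates 1 and 2 and 0.32 (SE 0.21) in replicates 3 and 4. SRXN1 had 0.66 (SE 0.22) and -0.05 (SE 0.22), the same order as TXNRD1. TXNIP had the opposite order, with 0.34 (SE 0.23) and 0.78 (SE 0.23). None of the 10 genes passed the test of the difference between sets, which called 0.23% of all genes. With so few libraries in each set, not passing does not show that the sets changed alike. The differences, 3 and 4 minus 1 and 2, were -0.72 (SE 0.30, edgeR adjusted p = 0.57) for TXNRD1, -0.71 (SE 0.32, adjusted p = 0.577) for SRXN1 and 0.44 (SE 0.32, adjusted p = 0.767) for TXNIP. In TXNRD1 the controls of the sets stood apart, with 147.4 and 184.6 CPM in replicates 1 and 2, while the treated libraries of the sets overlapped. In SRXN1 neither the controls nor the treated libraries of the sets overlapped, and the lower set was 1 and 2 among controls and 3 and 4 among treated cultures.

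Levels per length gave the balance of the system. In deposited FPKM, read counts per kilobase of exon scaled by library, controls had 635.2 ± 383 for TXN, 553.2 ± 172 for PRDX5, 467.1 ± 375 for PRDX1, 185.1 ± 47.4 for TXNIP and 155.2 ± 107 for PRDX3 (SD, n = 4). Below these stood PRDX4 at 73.02 ± 29.4, PRDX2 at 60.15 ± 4.49, PRDX6 at 50.69 ± 9.89, TXNRD1 at 29.83 ± 7.33 and SRXN1 at 2.243 ± 0.576 FPKM. Among neighbours in this order, the gap between means was larger than either SD between PRDX6 and TXNRD1 and between TXNRD1 and SRXN1, and in no other step. Treated cultures had 461.6 ± 245 for TXN, 387.9 ± 102 for PRDX5, 304.2 ± 211 for PRDX1, 266.7 ± 27.9 for TXNIP, 109.2 ± 56.0 for PRDX3 and 46.78 ± 6.42 for TXNRD1. In this group TXNRD1 stood level with PRDX6 (46.18 ± 5.83) and PRDX4 (49.69 ± 16.5).

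The ratio of TXNIP to TXN FPKM, which does not depend on how libraries are scaled, was 0.558, 0.794, 0.140 and 0.185 in controls 1 to 4. In treated cultures 1 to 4 it was 0.851, 1.60, 0.423 and 0.328. This ratio of RNA levels was higher in the treated library in every numbered comparison, by 1.52, 2.01, 3.01 and 1.77 times, although the groups overlapped. Protein was not measured. TXNRD1 per TXN was 0.0511, 0.0976, 0.0331 and 0.0475 without treatment and 0.161, 0.249, 0.0743 and 0.0595 in treated cultures, a gain of 3.15, 2.55, 2.24 and 1.25 times with overlapping groups. TXNRD1 per SRXN1, both NRF2 targets, was 12.2 to 14.0 in controls against 16.3 to 19.0 after treatment, with no overlap. TXNRD1 alone also had no overlap, and SRXN1 had 104 to 239 counts and an uncertain level. How often ratios of other genes separate in this way was not counted. PRDX1 per PRDX2 in treated cultures was 1.08, 0.694, 0.616 and 0.926 times that of the control of the same number. These ratios are descriptions of genes chosen together and were given no test. TXN has 1142 bases, TXNIP 3625 and TXNRD1 6708. A difference between libraries linked to gene length would not cancel in the ratios to TXN.

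**Figure D3:**
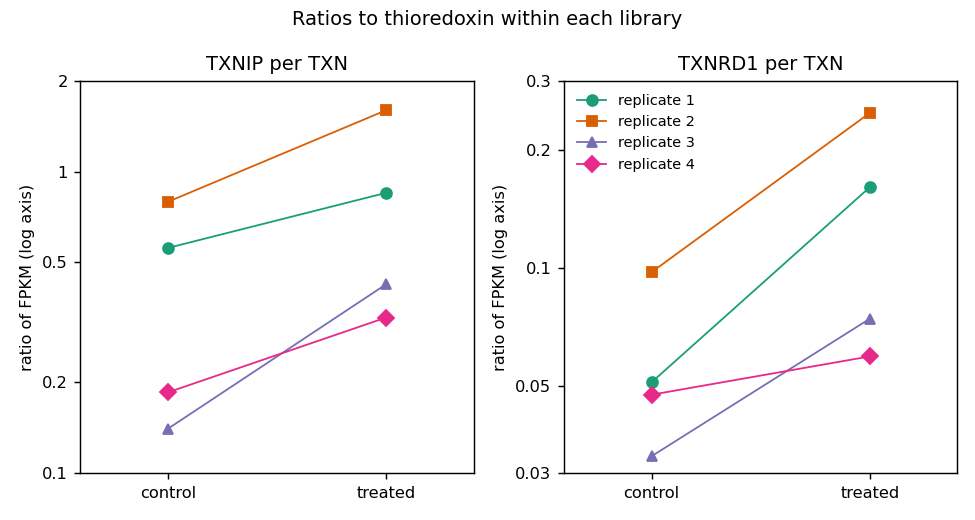
Ratio of TXNIP to TXN and of TXNRD1 to TXN in FPKM within each library (logarithmic vertical axes), with lines joining libraries of equal replicate number. Both ratios rise from control to treated for all 4 numbers, and libraries 3 and 4 start below 1 and 2 for TXNIP per TXN.

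The peroxiredoxins together summed to 1000, 696, 2150 and 1590 FPKM in controls 1 to 4 and to 784, 523, 1180 and 1310 FPKM in treated cultures 1 to 4. Treated sums were 0.781, 0.752, 0.551 and 0.823 times those of the control of the same number. The make-up of this sum followed the replicate number more than the treatment. PRDX1 held 16.7% and 19.0% of it in controls 1 and 2 and 18.8% and 18.9% in treated 1 and 2. In libraries 3 and 4 it held 40.9% and 43.4% in controls and 38.2% and 39.5% in treated cultures. PRDX5 held 60.6% and 51.2% in controls 1 and 2 and 35.4% and 30.7% in controls 3 and 4, so the leading peroxiredoxin was PRDX5 in libraries 1 and 2 and PRDX1 in libraries 3 and 4 of both groups. PRDX4 kept a narrow share, between 4.88% and 7.01% over all 8 libraries.

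**Figure D4:**
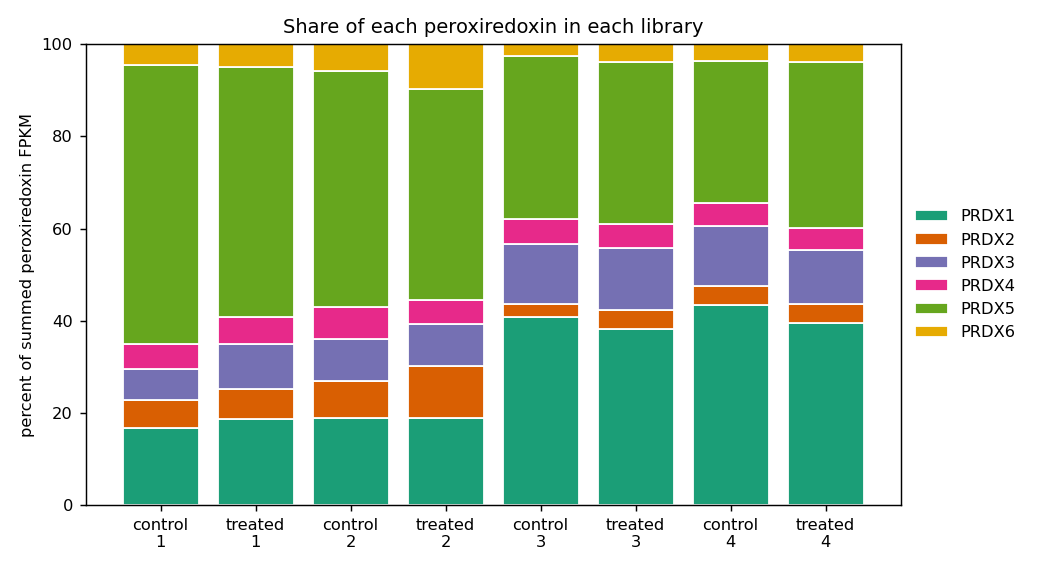
Percent of the summed peroxiredoxin FPKM held by each of PRDX1 to PRDX6 (stacked bars from 0 to 100) in each of the 8 libraries, control beside treated of the same number. PRDX5 is the largest share in libraries 1 and 2, at 45.8% to 60.6%, and PRDX1 in libraries 3 and 4, at 38.2% to 43.4%.

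The 17 pseudogenes named after the 10 genes held at most 1.44% of the count of their parent in any library, for PRDX3, 1.02% for PRDX2, 0.11% for TXN and 0.0148% for PRDX1. The longest exact stretch shared by transcripts of any 2 of the 10 genes was 20 bases, between PRDX3 and TXNRD1, and PRDX1 and PRDX2 shared 18. With their own pseudogenes the longest shared stretches were 16 to 76 bases. How reads that match both copies were counted was not tested.

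Genes around the system were taken from 7 lists, with 89 of 92 genes tested, of which 6 rose, 8 fell and 75 did not pass. Over all genes 7.51% were higher and 6.97% lower, so 6 and 8 of 89 lie near the background. With the term for the replicate sets 4 were higher and 5 lower, and edgeR without the block called 0. The calls not made with that term were TXNDC17 (adjusted p = 0.0511), TXN2 (0.0726), SESN1 (0.076), MAFG (0.0772) and MLXIPL (0.079). Among 22 thioredoxin, glutaredoxin and related oxidoreductases 3 fell and 0 rose (median log2 change -0.18, against -0.01 over all genes). TXNDC17, a small thioredoxin-like protein, went from 135.7 ± 63.3 to 78.69 ± 32.6 CPM (log2 change -0.78, adjusted p = 0.00138). GLRX, cytosolic glutaredoxin, had a log2 change of -0.72 (adjusted p = 0.00711). The third was TXN2, the mitochondrial thioredoxin (-0.53, adjusted p = 0.0136), named here after its value was seen.

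Of 13 thioredoxin clients and repair genes SESN2 rose, and MSRB1 and SESN1 fell (median -0.22). MSRB1, a methionine sulfoxide reductase and selenoprotein, had a log2 change of -0.71 (adjusted p = 0.00179). SESN2, a stress-induced sestrin, went from 85.02, 116.8, 13.61 and 14.18 CPM in controls to 111.4, 117.4, 54.16 and 46.63 CPM in treated cultures (log2 change 0.99, adjusted p = 0.00325), so libraries 3 and 4 carried most of the change. SESN1 had -0.50 (adjusted p = 0.031). The list of genes around TXNIP held alpha-arrestins, glucose-sensing factors, SLC2A1, ITCH and NLRP3. Of 10 tested, NLRP3 (log2 change 0.92, adjusted p = 0.00769) and MLXIPL (0.62, adjusted p = 0.0279) rose and ARRDC3 fell (-0.77, adjusted p = 0.00206). MLXIPL is the glucose-sensing factor ChREBP. NLRP3, an inflammasome sensor to which TXNIP can bind, was low, at 2.423 ± 0.627 and 4.558 ± 0.667 CPM (SD, n = 4). ARRDC4, a paralogue of TXNIP, had 0.38 and did not pass (adjusted p = 0.0625; named after its value was seen).

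Of 17 genes of NADPH supply, which feeds thioredoxin reductase, 0 rose and 1 fell (median 0.11). IDH1, the cytosolic isocitrate dehydrogenase, had 79.49, 64.52, 532.0 and 410.7 CPM without treatment and 33.61, 33.15, 210.4 and 213.0 CPM in treated cultures. It was lower in treated cultures for every number and kept the gap between the replicate sets (log2 change -1.12, SE 0.15, edgeR adjusted p = 2.57e-05). Of 9 genes of selenoprotein synthesis LRP8, a receptor for selenium-carrying selenoprotein P, rose (0.59, adjusted p = 0.00591; median 0.10). Of 12 genes for NRF2 and its regulators MAFF (0.86, adjusted p = 0.00822) and MAFG (0.41, adjusted p = 0.048), small partners of NRF2, rose, and RBX1, a subunit of the ligase that degrades NRF2, fell (-0.81, adjusted p = 0.00101; median 0.24). Of 6 other tested enzymes that remove peroxide 0 passed (median -0.32).

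Over the 8 libraries, 10871 protein-coding genes with a mean of 5 CPM or more were compared, and the 3 most like TXNRD1 in log2 CPM were PNO1, PA2G4 and TOR1B, with Pearson coefficients of 0.973, 0.967 and 0.967. Those most like PRDX1 were HSDL2, ATG4A and CCT3 (0.998 each), and those most like TXNIP were ADAM17 (0.983), FFAR2 (0.980) and HBEGF (0.976). The 8 libraries fall into 2 sets, so these coefficients are descriptions that the separation of the sets can carry alone.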

How the data were processed

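RNA of 8 SV-HUC1 cultures, 4 control and 4 treated with glucose oxidase, was analysed from the deposited tables. Per the submitters' processing notes the tools included HISAT2 2.0.5, featureCounts 1.5.0-p3 and DESeq2 1.20.0, with GRCh38.p13 as the genome build. No source used here gives the strand setting. The deposited read counts are whole numbers per gene and not normalised. The deposited FPKM values use the deposited gene length (all exon bases) and were scaled by 1 constant per library, 0.754 to 1.22 times its total count. The authors' comparison table holds size-factor-normalised signal, a log2 fold change and its p-value and adjusted p-value, and 0 per-sample columns were left unused.

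Counts were tested with edgeR 4.0.16 (R 4.3.3; quasi-likelihood test, TMM, filterByExpr, Benjamini-Hochberg adjusted p below 0.05), with the group as the only term. Same-numbered libraries deviated together from their group means (correlations 0.532, 0.678, 0.590 and 0.503, all over 0.1), so a fit blocked on that number was added. The words rose and fell rest on the blocked fit and not on the fit with the group alone. The labels do not give the pairing that the block assumes. That check does not separate pairing by number from the division into replicates 1 and 2 and replicates 3 and 4, since control 3 and treated 4 correlated at 0.652. Libraries of a group all differed by more than sampling noise (chi-square over degrees of freedom 9.978 to 227.0). DESeq2 1.42.0, other scalings, no filter, a lowess correction for gene length (span 0.3) and left-out libraries were alternatives. Simulated data were drawn with differences between replicate numbers built in. There the blocked fit recovered more of the changed genes than the other fits and was the only one to make false calls. Because the block was built in, the simulation cannot show which fit suits these libraries.

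The members and lists were chosen with earlier results of these data known. All 10 members are named, with up to 2 called genes in each direction per list and the 3 genes most like TXNRD1, PRDX1 and TXNIP in log2 CPM (prior count 2). Promoters are from RefSeq, and exon overlaps and transcripts from GENCODE.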

Additional observations from a re-analysis of the deposited data

Results flagged for a closer look

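SESN2 and MAFF had different fitted changes in replicates 3 and 4 than in replicates 1 and 2. These sets are not in the labels and were seen in the expression values, so the adjusted p-values for the difference are descriptions only. The log2 change of SESN2 was 0.18 in the first set and 1.86 in the other, a difference of 1.68 (edgeR adjusted p = 0.0313), and MAFF had 0.07 and 1.70, a difference of 1.63 (edgeR adjusted p = 0.0331). The controls of the sets were far apart. MAFF had 131.9 and 111.3 CPM in controls 1 and 2 and 32.42 and 30.14 CPM in controls 3 and 4, and SESN2 85.02 and 116.8 against 13.61 and 14.18 CPM. NLRP3 in control 3, at 1.494 CPM, lay apart from the other controls at 2.596 to 2.81 CPM. This was the only library to stand apart in 46 groups of 4 checked over 23 genes, and chance alone would mark about 1 in 20 groups.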

How the results depend on the processing

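Against 0 genes called by edgeR without a block, the replicate block gave 2521 (5 of the 10 members), the term for replicates 1 and 2 against 3 and 4 gave 1182 (1 member), DESeq2 without a block 76 (0 members) and DESeq2 with the replicate block 2511 (6 members, with TXN added). Without a filter on low counts the numbers were 34 (0 members) without and 2293 (3 members) with the block. With the block, total counts gave 2210 (2 members), DESeq2 size factors in edgeR 2568 (5 members) and the length correction 2194 (2 members). Leaving out 1 library without the block gave 0 genes and 0 members. Leaving out 1 replicate number with the block gave 1634 genes (2 members) without replicate 1, 1502 (2) without 2, 1100 (1) without 3 and 1886 (3) without 4. The test of a difference between the replicate sets called 40 genes, 157 with the replicate block and 127 without the filter, and none of the members in any. Over 23 alternatives the log2 change of 9 members kept its sign. That of PRDX6 was 0.0033 under total counts. The difference between sets, not called in any fit, turned to 0.011 for PRDX2, 0.096 for PRDX4 and 0.18 for TXN under total counts, and to 0.043 for TXN with the block. Pairing by number is not given by the labels, and 4 libraries a group limit the precision.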
